A study of Mus musculus with 10 samples.

Results

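The lysyl oxidase family of the mouse consists of 5 genes, Lox, Loxl1, Loxl2, Loxl3 and Loxl4, and its expression was examined in 10 mouse tumors. Members were taken as every non-control probe whose gene name on the array was one of these symbols. This gave 7 of the 41174 probes and 5 of the 19505 genes with a name. Lox, Loxl1 and Loxl3 had 1 probe each, while Loxl2 and Loxl4 had 2 probes each. These probes were taken by name and not by measured level, but the family was chosen with earlier results of these data known.

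Lysyl oxidases are secreted, copper-dependent amine oxidases that convert lysine side chains of collagens and elastin into reactive aldehydes, from which the cross-links of the extracellular matrix form. Lox and Loxl1 are made as pro-enzymes with a pro-peptide that is cut off outside the cell, whereas Loxl2, Loxl3 and Loxl4 carry scavenger receptor cysteine-rich domains ahead of the shared catalytic domain. In tumors, these enzymes are known for stiffening the matrix, and Loxl2 and Loxl3 also for acting with the transcription factor Snai1 in epithelial-mesenchymal transition (EMT).

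Each tumor was measured on 1 Agilent array with a red and a green channel, and the comparison asked which genes differ between metastatic sarcomatoid (spindle cell) carcinomas and adenocarcinomas. All primary tumors arose in mice with MMTV-Cre, a transgene that drives Cre recombinase mainly in mammary epithelium, and the methods give a C57BL/6 background for the compound mutants. The 5 adenocarcinomas (tumors 105, 131, 470, 17 and 85) were mammary tumors with the Pik3ca H1047R and Trp53 R270H alleles. The sarcomatoid group held 3 mammary tumors (323, 307 and 594) and 2 lung tumors labelled 323 and 307, which the methods describe as grown in the lung after tail vein injection of cell lines made from primary tumors of the group. Of the mammary tumors with a lung counterpart, 1 carried Pik3ca H1047R and Trp53 R270H and the other carried Pik3ca H1047R with a spontaneous Trp53 R245H mutation. The labels do not say which of the numbers 323 and 307 is which. The mammary tumor without a lung counterpart, 594, carried Trp53 R270H alone and is labelled sarcomatoid carcinoma, the other 4 sarcomatoid adenocarcinoma. The 5 sarcomatoid arrays therefore stand for 3 tumor origins, and p-values over 5 arrays take them as 5 independent tumors. Ages of the mice were not given in the sources used here.

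All levels below are log2 ratios of red over green, read as tumor over a common reference. This direction is likely but not settled, since the labels name only the green dye (Cy3). It rests on the smaller spread between arrays in green (mean SD of the log2 signal 0.737, against 0.975 in red) and on the deposited normalized values, whose columns each correlated best with the red over green ratio of their own array (r of 0.868 or more). The correlation shows which ratio was deposited and cannot by itself tell which channel held the tumor. The reading also took account of the direction that the study's text gives for the epithelial genes Krt18 and Epcam, so their direction here is no finding. If green held the tumor, every sign below would turn. Over the 7 family probes, the SD between the 10 arrays was 0.11 to 0.23 in green and 0.33 to 1.56 in red. Between 52.2% and 83.0% of probes were well above background in red on each array. The number of arrays limits the precision of every value.

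Tumor 470 stood apart from its label. Its array correlated better on average with the sarcomatoid arrays (r = 0.720 across probes) than with the other adenocarcinomas (r = 0.513). The mean log2 ratio of 8 epithelial markers was -1.66 in tumor 470 and 2.49 to 2.94 in the other adenocarcinomas. The mean of 8 fibroblast markers was 2.26 there, against -1.58 to 0.96 in the other adenocarcinomas. The differences of the family and the medians of the gene lists are therefore given with and without tumor 470, and so are those of other named genes that moved by more than 1.5 times. Tumor 470 was singled out from these same data and was the highest adenocarcinoma for every family probe. Leaving it out therefore widens each family difference by construction, and smaller p-values without it are no independent evidence. In bulk tumors, fewer cells of a type and less RNA per cell cannot be told apart.

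All 7 family probes had a higher mean in the sarcomatoid group, as did 48.6% of all probes. The median difference (sarcomatoid minus adenocarcinoma) was 1.17 on the log2 scale over the family probes and -0.01 over all probes. The differences were widest for Loxl1 (3.17-fold) and for a Loxl2 probe (3.08-fold) and were close to 0 for both Loxl4 probes. None of the 7 probes passed limma's test at an adjusted p of 0.05, nor did any of the 41174 probes in either direction (0% higher and 0% lower). At an unadjusted p below 0.05, 3 of the 7 family probes were higher (Loxl1 and both Loxl2 probes), against 4.74% of all probes (9.85% in either direction). The family count was 2 with median centring, with scan batch as a term and with the slide as a random block. In these settings 3706 to 4454 of all 41174 probes were below 0.05. For Loxl2 A_52_P480351, limma's unadjusted p was 0.0583 with median centring and 0.0806 with scan batch as a term. The study itself named Loxl2 from these samples, so its direction here is not independent evidence. The groups overlapped for all 7 family probes, whereas they did not overlap for 1.35% of all probes.

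**Figure D1:**
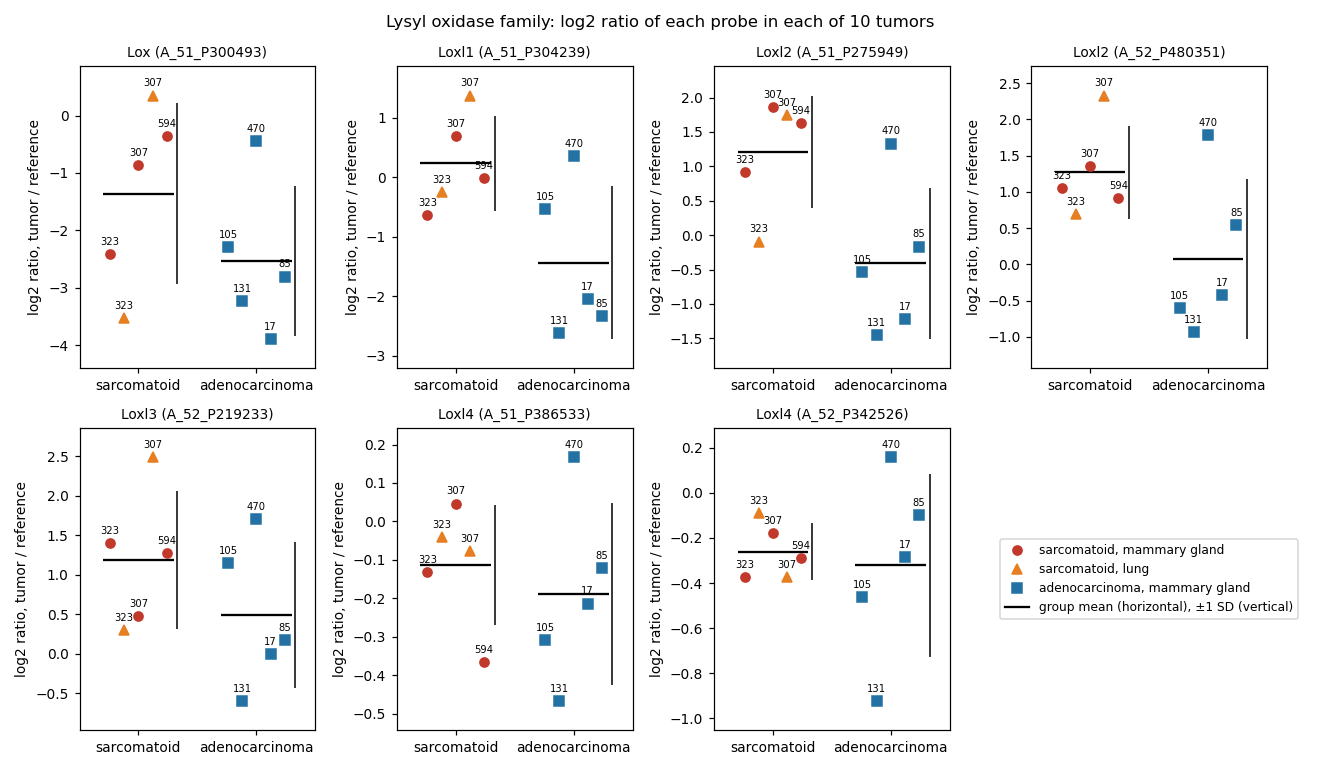
Log2 ratio (tumor over reference, likely direction) of each family probe in each of 10 tumors, with symbols for group and site, tumor numbers beside the points, horizontal bars for group means and vertical bars for 1 SD (n = 5 arrays per group); each panel has its own vertical scale. For Lox, Loxl1, Loxl2 and Loxl3, tumor 470 is the highest adenocarcinoma and lies within the range of the sarcomatoid tumors, and the Loxl4 panels span 1.08 log2 units or less.

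Lox, the founding member, which cross-links fibrillar collagen and elastin, lies on chromosome 18 and was measured by probe A_51_P300493. In the mammary sarcomatoid tumors its log2 ratio was -2.42 in tumor 323, -0.86 in tumor 307 and -0.36 in tumor 594. In the lung tumors it was -3.53 in tumor 323 and 0.35 in tumor 307. In the adenocarcinomas it was -2.29 in tumor 105, -3.23 in tumor 131, -0.45 in tumor 470, -3.90 in tumor 17 and -2.81 in tumor 85. The tumors numbered 323 thus lay with the adenocarcinomas, and tumor 470 lay with the other sarcomatoid tumors. Group means were -1.36 ± 1.58 (SD, n = 5) in sarcomatoid tumors and -2.53 ± 1.31 (SD, n = 5) in adenocarcinomas. The difference of 1.17 (SE 0.83, 95% interval -0.69 to 3.03) did not pass limma's test (adjusted p = 0.712). Without tumor 470 the difference was 1.69 (limma, adjusted p = 0.353).

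Loxl1, which acts mainly on elastin and is needed for elastic fibre upkeep, was measured by probe A_51_P304239 at chr9:58319258-58319317 (minus strand, mouse build mm7, as in the array annotation). In the mammary sarcomatoid tumors the log2 ratio was -0.64 in tumor 323, 0.69 in tumor 307 and -0.02 in tumor 594. In the lung tumors it was -0.25 in tumor 323 and 1.37 in tumor 307. In the adenocarcinomas it was -0.54 in tumor 105, -2.62 in tumor 131, 0.36 in tumor 470, -2.05 in tumor 17 and -2.33 in tumor 85. Tumors 131, 17 and 85 lay below every sarcomatoid tumor, while tumors 105 and 470 lay within their range. Means were 0.23 ± 0.80 (SD, n = 5) in sarcomatoid tumors and -1.44 ± 1.28 (SD, n = 5) in adenocarcinomas. The difference was 1.66 (SE 0.61, 95% interval 0.29 to 3.04). Its unadjusted p in limma was 0.0225 and its adjusted p 0.442. Only 0.384% of all probes had a larger difference in this direction. Without tumor 470 the difference was 2.11 (limma, adjusted p = 0.0884).

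Loxl2 cross-links basement membrane collagen IV and fibrillar collagens. Its probe A_51_P275949 lies at chr14:64336628-64336687 and its probe A_52_P480351, designed on a predicted transcript, at chr14:64339741-64339800 (both plus strand, mm7). With A_51_P275949, the mammary sarcomatoid tumors had log2 ratios of 0.92 (tumor 323), 1.86 (tumor 307) and 1.63 (tumor 594). The lung tumors had -0.09 (tumor 323) and 1.74 (tumor 307). The adenocarcinomas had -0.54 (tumor 105), -1.45 (tumor 131), 1.33 (tumor 470), -1.22 (tumor 17) and -0.17 (tumor 85). Apart from tumor 470, every adenocarcinoma was below every sarcomatoid tumor, the lung tumor 323 being the closest. Means were 1.21 ± 0.82 and -0.41 ± 1.10 (SD, n = 5 each). The difference of 1.62 (SE 0.56, 95% interval 0.37 to 2.87) had an unadjusted p of 0.0160 and an adjusted p of 0.422 in limma. A larger difference in this direction was found for 0.437% of all probes.

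The other Loxl2 probe, A_52_P480351, gave a similar order of tumors (r = 0.904 between both probes over 10 arrays). Its log2 ratios in mammary sarcomatoid tumors were 1.05 (tumor 323), 1.36 (tumor 307) and 0.92 (tumor 594). In the lung tumors they were 0.70 (tumor 323) and 2.33 (tumor 307). In the adenocarcinomas they were -0.60 (tumor 105), -0.94 (tumor 131), 1.78 (tumor 470), -0.42 (tumor 17) and 0.54 (tumor 85). Here, too, tumor 470 was the only adenocarcinoma within the sarcomatoid range, and it exceeded all sarcomatoid tumors but the lung tumor 307. Means were 1.27 ± 0.64 and 0.07 ± 1.10 (SD, n = 5 each), with a difference of 1.20 (SE 0.52, 95% interval 0.04 to 2.36). The unadjusted p in limma was 0.0442 and the adjusted p 0.494.

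Without tumor 470, a removal decided from these data that could only widen the differences, the groups no longer overlapped for the 2 Loxl2 probes. The same held for 6.53% of all probes. The differences were then 2.06 for A_51_P275949 (limma, adjusted p = 0.0622) and 1.63 for A_52_P480351 (limma, adjusted p = 0.0822). In the same fit 1.54% of all probes passed the adjusted threshold and no family probe did. At an unadjusted p below 0.05 it held the same 3 family probes, against 14.8% of all probes. With the normalized values deposited by the authors and without tumor 470, an alternative chosen after the data were seen, A_51_P275949 passed the test at 2.53 (limma, adjusted p = 0.0371), where 1.54% of probes passed. The other 6 family probes did not pass there. With all 10 arrays, the deposited values gave differences of 2.02 and 1.27 for the Loxl2 probes, 1.80 for Loxl1, 1.33 for Lox and 1.03 for Loxl3.

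Loxl3, an enzyme needed for collagen assembly in palate and spine, was measured by probe A_52_P219233 at chr6:83077683-83077742 (plus strand, mm7). Its log2 ratio was 1.40 in tumor 323, 0.48 in tumor 307 and 1.28 in tumor 594 of the mammary sarcomatoid tumors. In the lung it was 0.30 in tumor 323 and 2.48 in tumor 307. In the adenocarcinomas it was 1.15 in tumor 105, -0.60 in tumor 131, 1.70 in tumor 470, -0.0008 in tumor 17 and 0.18 in tumor 85. Tumors 105 and 470 lay within the sarcomatoid range, and tumors 131, 17 and 85 lay below it. Means were 1.19 ± 0.87 and 0.49 ± 0.93 (SD, n = 5 each). The difference of 0.70 (SE 0.52, 95% interval -0.46 to 1.86) did not pass limma's test (adjusted p = 0.725), nor did it without tumor 470 (1.01, limma, adjusted p = 0.395).

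Loxl4 was the dimmest member. Its probe A_51_P386533 lies at chr19:42493908-42493967, and A_52_P342526 spans chr19:42489250-42491402, a stretch of 2153 bases (both minus strand, mm7). In red, A_51_P386533 was well above background on 3 of 5 sarcomatoid and 3 of 5 adenocarcinoma arrays, and A_52_P342526 on 5 of 5 and 4 of 5. The other 5 family probes were well above background in both channels on all 10 arrays, and none of the 7 was saturated. The log2 ratio of A_51_P386533 ran from -0.37 to 0.05 in sarcomatoid tumors and from -0.47 to 0.17 in adenocarcinomas. That of A_52_P342526 ran from -0.37 to -0.09 and from -0.92 to 0.16. The highest value of each was that of tumor 470. The differences were 0.08 (95% interval -0.21 to 0.36; limma, adjusted p = 0.897) and 0.06 (95% interval -0.34 to 0.47; limma, adjusted p = 0.945). Without tumor 470 they were 0.16 and 0.18 (limma, adjusted p = 0.574 and 0.698). With all 10 arrays, the deposited values gave -0.14 (SE 0.53) for A_51_P386533 and 0.09 (SE 0.37) for A_52_P342526. The SEs behind the intervals above were 0.13 and 0.18. The narrow intervals of these dim probes thus depend on the processing and do not bound the differences closely.

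**Figure D2:**
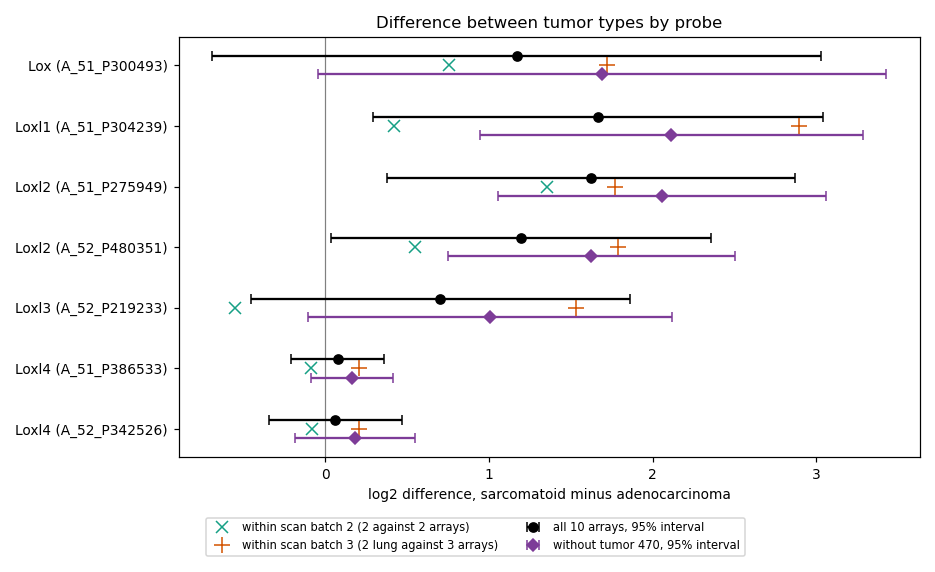
Log2 difference (sarcomatoid minus adenocarcinoma, likely direction) of each family probe with all 10 arrays (circles) and without tumor 470 (diamonds), both with 95% intervals from limma, and within scan batches 2 and 3 (crosses and plus signs, no interval). With all arrays, the intervals of Loxl1 and both Loxl2 probes exclude 0 before adjustment over all probes, and those of Lox, Loxl3 and Loxl4 include it.

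Per the file headers, the arrays fall into 3 scan batches, each read with its own version of the scanner's extraction protocol. Scan batch 1 held the mammary tumor 323 alone, scan batch 2 the mammary tumors 307, 594, 105 and 470, and scan batch 3 both lung tumors with tumors 131, 17 and 85. Within scan batch 2 the difference was 0.76 for Lox, 0.42 for Loxl1, 1.35 and 0.55 for the Loxl2 probes A_51_P275949 and A_52_P480351, and -0.55 for Loxl3. Within scan batch 3 it was 1.72 for Lox, 2.89 for Loxl1, 1.77 and 1.79 for the Loxl2 probes, and 1.53 for Loxl3. Lox, Loxl1 and Loxl2 thus kept their direction in both batches, and Loxl3 did not. Scan batch 2 holds tumor 470 among its 2 adenocarcinomas, and scan batch 3 holds only lung tumors in its sarcomatoid group. With mammary tumors alone, the differences were 1.32 for Lox, 1.44 for Loxl1, 1.88 and 1.04 for Loxl2 and 0.57 for Loxl3.

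An exact permutation test over the 10 arrays (two-sided, smallest possible p 0.00794) was run on each of the 7 probes, and its p-values were not adjusted. It gave 0.0317 for Loxl2 A_51_P275949, 0.0635 for Loxl1 and 0.0794 for Loxl2 A_52_P480351. For Lox and Loxl3 the exact p was 0.254 and 0.246, and for the Loxl4 probes 0.563 and 0.738. With arrays of the same tumor number averaged (3 sarcomatoid against 5 adenocarcinoma values, smallest possible p 0.0179), the exact permutation p was 0.0714 for Loxl2 A_51_P275949 and 0.0893 for Loxl1. In the same permutation test it was 0.143 for Loxl2 A_52_P480351 and 0.25 or above for Lox, Loxl3 and Loxl4. The difference of Loxl2 A_51_P275949 was then 1.69, and its p in limma 0.0323 before and 0.675 after adjustment.

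The lung and mammary tumors of the sarcomatoid group addressed whether the family differed by site. Of the 7 probes, 5 had a higher mean in the lung, as did 48.8% of all probes, and the tumor pairs differed in direction. Loxl1 was higher in the lung in both pairs, by 0.39 in tumor 323 and 0.68 in tumor 307. Loxl2 A_51_P275949 was lower in the lung in both, by a log2 difference of -1.01 in tumor 323 and -0.12 in tumor 307. The other probes went opposite ways in the pairs. For Lox, lung minus mammary was -1.11 in tumor 323 and 1.21 in tumor 307. For Loxl3 it was -1.11 and 2.01, and for Loxl2 A_52_P480351 it was -0.35 and 0.97. All members but Loxl4 were higher in lung tumor 307 than in lung tumor 323, by more than 1 log2 unit.

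In a fit of lung (n = 2) against mammary (n = 3) sarcomatoid tumors, which took the spread from all 10 arrays, none of the 7 family probes passed, against 0.00486% of all probes (2 probes). At an unadjusted p below 0.05 there was again no family probe in this fit, against 7.06% of all probes. The sites overlapped for all 7, whereas they did not overlap for 27.7% of all probes. The estimates with their 95% intervals were -0.38 (-3.24 to 2.49) for Lox, 0.55 (-1.53 to 2.63) for Loxl1, -0.65 (-2.51 to 1.22) and 0.40 (-1.37 to 2.17) for the Loxl2 probes A_51_P275949 and A_52_P480351, and 0.34 (-1.44 to 2.11) for Loxl3. Limma's adjusted p was 0.926 or above for all 7 probes. The intervals leave room for differences of more than 1 log2 unit either way for Lox, Loxl1, Loxl2 and Loxl3. No scan batch held sarcomatoid tumors of both sites, so site and scan batch cannot be told apart from these 5 arrays alone. With scan batch as a term, lung minus mammary was 2.47 for Loxl1 (limma, unadjusted p = 0.0156, adjusted p = 0.737). It was 2.08 for Loxl3 (limma, adjusted p = 0.876) and 1.24 for Loxl2 A_52_P480351, and Lox and Loxl2 A_51_P275949 turned to 0.96 and 0.42. This fit draws on the adenocarcinomas of each batch and not on mammary tumor 323, alone in its batch. Without mammary tumor 323 and without the term, lung minus mammary was 0.23 for Loxl1 and 0.51 for Loxl3. The remainder came from adenocarcinomas that differed between batches. For Loxl1, tumors 105 and 470 had -0.54 and 0.36, and tumors 131, 17 and 85 had -2.62, -2.05 and -2.33. The values with this term thus do not isolate site. Of the lung epithelial markers, Sftpa1 and Sftpb were well above background in red on neither lung array, Sftpc and Sftpd on 1 of 2 each, and Scgb1a1 and Ager on 2 of 2 each. Lung minus mammary was 0.23 for Scgb1a1, 0.11 for Ager and 0.34 for Sftpc. It was -1.09 for Sftpd, -0.07 for Sftpa1 and -0.05 for Sftpb. The mean of the 6 lung epithelial markers was 0.0029 and 0.20 in the lung tumors, against -0.02 to 0.38 in the mammary sarcomatoid tumors.

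**Figure D3:**
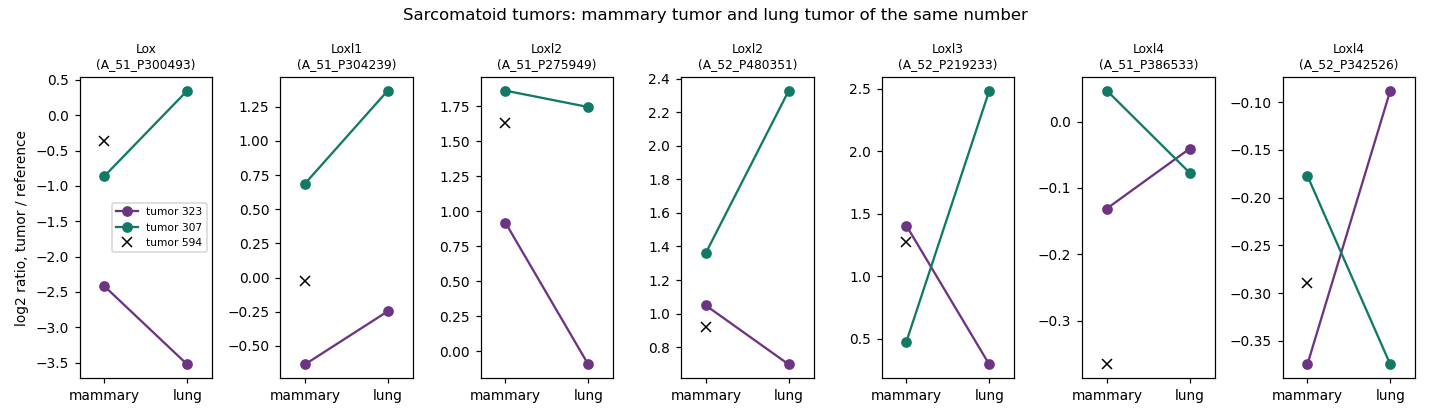
Log2 ratio (tumor over reference, likely direction) of each family probe in the mammary and lung tumors numbered 323 and 307, joined by lines, with the mammary tumor 594 as a cross (1 array per point, own scale in each panel). Lines of Loxl1 run upwards in both pairs, those of Loxl2 A_51_P275949 downwards in both, and those of the remaining 5 probes cross or diverge.

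The members other than Loxl4 varied together over the 10 arrays. Pearson's r between any pair of the probes of Lox, Loxl1, Loxl2 and Loxl3 ran from 0.739 (Loxl2 A_51_P275949 with Loxl3) to 0.904 (the Loxl2 probes), and without tumor 470 from 0.716 to 0.901. With the Loxl4 probes it ran from 0.263 to 0.732, and the Loxl4 probes had r = 0.830 with each other. These correlations hold both groups, cover 8 tumor numbers of which 2 have 2 arrays, share arrays and reference, and are given as a description.

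Genes of known or proposed links to the family were grouped into 7 lists. No gene of any list passed the adjusted threshold with all 10 arrays, nor did any other probe (0%). The fibrillar and basement membrane collagens, which are substrates, had a higher sarcomatoid mean for 5 of 8 genes with a median difference of 0.32, and of 0.90 without tumor 470. Their widest differences were 1.57 for Col5a1, 0.75 for Col3a1 (1.32 without tumor 470) and -0.55 for Col11a1. Over each gene's probes, differences ran from 0.55 to 1.57 for Col5a1, 0.05 to 0.75 for Col3a1 and -0.55 to -0.25 for Col11a1. The basement membrane collagen IV genes of the list went against its median. Col4a1 differed by -0.36 and Col4a2 by -0.46 (-0.19 and -0.39 without tumor 470). Of the elastic fibre genes, 7 of 13 had a higher sarcomatoid mean (median 0.14, and 0.27 without tumor 470), with 1.45 for Emilin1, -1.31 for Fbln1 and 1.02 for Fbln2. The other Fbln1 probe differed by -0.39. Eln, which encodes elastin itself, had means of 0.46 and 0.58.

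Among genes for pro-enzyme processing and lysyl oxidase partners, 6 of 9 with a probe had a higher sarcomatoid mean (median 0.49, and 0.93 without tumor 470). The fibronectin gene Fn1, whose product binds Lox, differed by 1.53 (limma, adjusted p = 0.481). Its 3 probes differed by 0.82 to 1.53. The procollagen C-proteinase enhancer gene Pcolce differed by 1.51 (limma, adjusted p = 0.596), and Thbs1 by -0.96 (limma, adjusted p = 0.404). The 3 Thbs1 probes differed by -0.96 to -0.48. Of the collagen modification genes, which hydroxylate or fold collagen before it leaves the cell, 9 of 9 had a higher sarcomatoid mean with a median of 0.59, and of 0.80 without tumor 470. The widest were 0.89 for the collagen chaperone gene Serpinh1, 0.79 for the lysyl hydroxylase gene Plod2 (1.22 without tumor 470) and 0.70 for the prolyl hydroxylase gene P4ha1.

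The copper supply genes, which deliver the metal of the catalytic site, had 2 of 4 higher means and a median of -0.01 (0.03 without tumor 470), from -0.19 for Atp7a and -0.10 for Atp7b to 0.36 for Atox1. Other amine oxidases, which are not lysyl oxidases, had 2 of 7 higher means and a median of -0.90 (-0.62 without tumor 470). Smox, which oxidizes spermine, had a difference of -1.43 (limma, adjusted p = 0.378), with groups that did not overlap. Aoc1 and Maob differed by -1.08 and -0.99. The lysyl oxidase probes and these other oxidases thus lay on opposite sides of 0 in the median, a difference that was not tested.

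**Figure D4:**
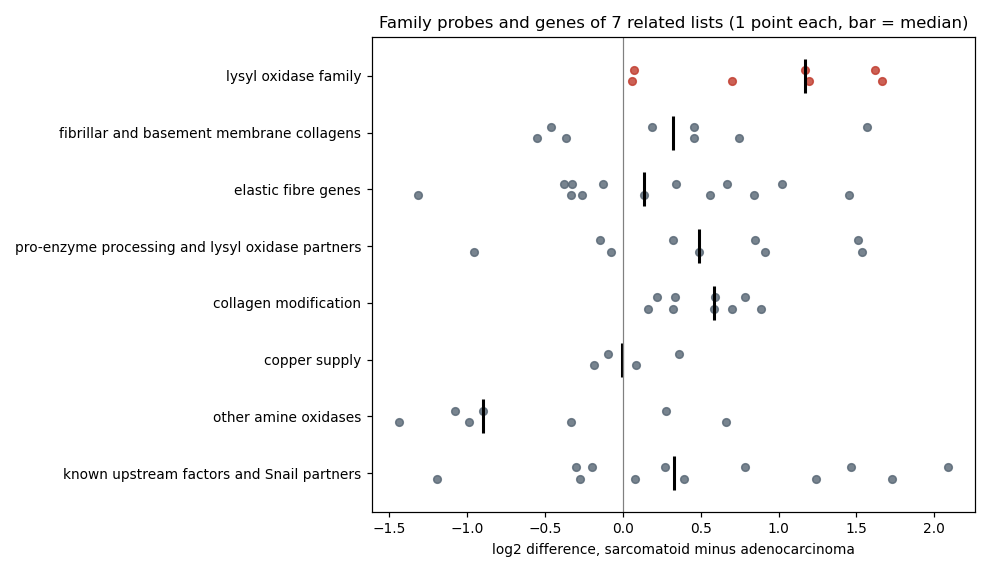
Log2 difference (sarcomatoid minus adenocarcinoma, likely direction, all 10 arrays) of the 7 family probes and of each gene with a probe in 7 related lists, 1 point each, with a bar at each median. The family median is 1.17, the medians of the lists run from -0.90 for other amine oxidases to 0.59 for collagen modification, and no point passed the adjusted threshold.

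Of 12 known upstream factors and Snail partners, 8 had a higher sarcomatoid mean, with a median of 0.33, and of 0.55 without tumor 470. The EMT factors Zeb2, Snai2 and Zeb1 had the widest differences, 2.09 (limma, adjusted p = 0.381), 1.73 (adjusted p = 0.609) and 1.46 (adjusted p = 0.439). Without tumor 470, Zeb2 (2.59, limma, adjusted p = 0.0234) and Zeb1 (1.94, limma, adjusted p = 0.0365) passed, 2 of the 12, against 1.54% of all probes. Tumor 470 was the highest adenocarcinoma for both genes, so leaving it out widens these differences by construction. Zeb2 was named by the study from these samples, and its 5 probes differed by 0.41 to 2.09 with all 10 arrays. Epas1, which encodes the hypoxia factor HIF-2alpha, went the other way, with a difference of -1.19 (limma, unadjusted p = 0.00174, adjusted p = 0.378) and groups that did not overlap, and its other probe differed by 0.02. Snai1, the factor that Loxl2 is known to act with, had log2 ratios of -0.28, -0.04 and 0.48 in the mammary sarcomatoid tumors 323, 307 and 594, and of -0.06 and 0.87 in the lung tumors 323 and 307. In the adenocarcinomas it was -1.42 in tumor 105, -2.22 in tumor 131, 0.25 in tumor 470, -1.34 in tumor 17 and -0.49 in tumor 85. As with Loxl2, tumor 470 was the only adenocarcinoma within the sarcomatoid range. The difference for Snai1 was 1.24 (limma, adjusted p = 0.429), and 1.56 without tumor 470 (limma, adjusted p = 0.0734).

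For the brightest probe of each member, the genes with the most similar pattern over the 10 arrays were sought among 22103 probes of 13858 genes. For Lox, they were Xylt1 (r = 0.968), Sparc (0.962), Hoxb7 (0.961), Hdgfl3 (0.960) and Ctsk (0.959). For Loxl1, they were B3gnt9 (0.963), Rnf19b (0.961), St3gal2 (0.955), Ckap4 (0.954) and Fat4 (0.950). For Loxl2 (A_52_P480351), they were Mtmr11 (0.952), Anapc15 (0.942), Snai1 (0.942), Fbxo4 (0.931) and Cox18 (0.924). Snai1, a member of the list above, thus had the third highest r with Loxl2 of all genes searched, and r was 0.944 without tumor 470. For Loxl3, they were Zfp862-ps (0.953), Runx1t1 (0.952), Skap1 (0.942), Hhipl1 (0.937) and Dpt (0.928). For Loxl4 (A_52_P342526), they were Arl10 (0.930), Ptpn12 (0.918), Zdhhc2 (0.898), Hnrnph1 (0.891) and Ggta1 (0.886). No gene was among the first 5 of more than 1 member. These are the highest of all correlations searched, over only 10 arrays, and are given as a description.

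**Figure D5:**
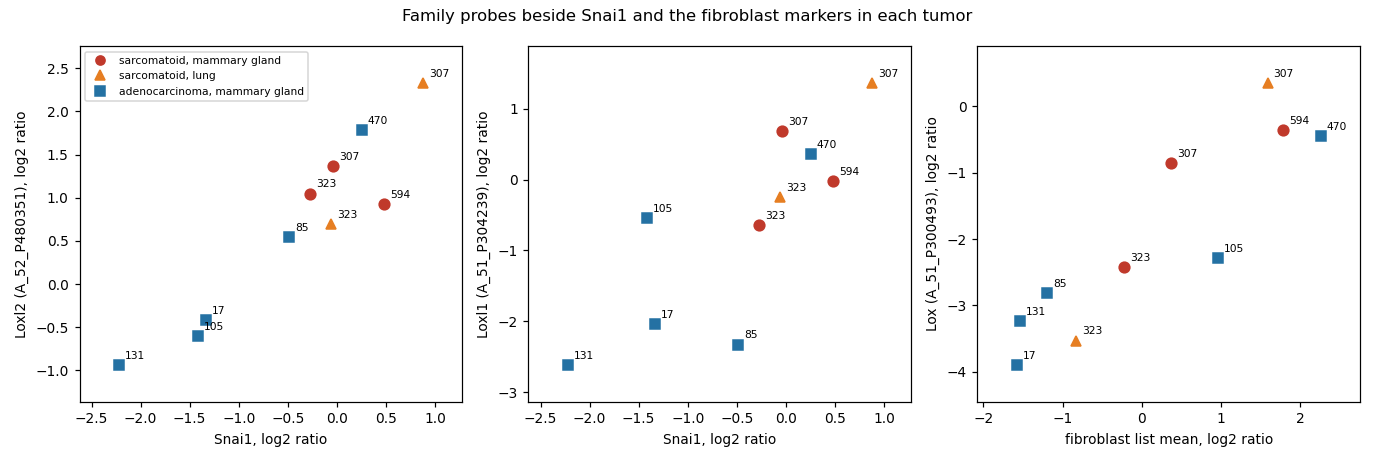
Log2 ratio (tumor over reference, likely direction) of Loxl2 (A_52_P480351) and Loxl1 against Snai1, and of Lox against the mean of 8 fibroblast markers, 1 point per tumor with its number. Loxl2 follows Snai1 over both groups (r = 0.942), and Lox follows the fibroblast markers (r = 0.897). The tumor nearest to tumor 470 is a sarcomatoid one in all panels. In the Lox panel, the tumors numbered 323 lie further from tumor 470 than adenocarcinoma 105 does.

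Markers of other cell types moved with the family to differing degrees. The mean of the 8 fibroblast markers ran from -0.83 to 1.79 in sarcomatoid tumors and from -1.58 to 2.26 in adenocarcinomas, 8 of 8 having a higher sarcomatoid mean (median difference 0.72, and 1.17 without tumor 470). Its r with the probes of Lox, Loxl1, Loxl2 and Loxl3 ran from 0.647 for Loxl2 A_52_P480351 to 0.897 for Lox. The mean of 6 myeloid markers ran from 1.71 to 2.83 in sarcomatoid tumors and from -0.31 to 2.19 in adenocarcinomas, 6 of 6 being higher in the mean (median difference 1.53, and 1.90 without tumor 470). Its r with the same family probes ran from 0.577 for Lox to 0.813 for Loxl1. Over each myeloid marker's probes, differences ran from 0.27 to 1.45 for Ptprc and 0.72 to 1.41 for Itgam. They ran from 0.71 to 1.80 for Adgre1 and 0.43 to 1.64 for Csf1r. The probe used had the widest difference for each of these genes. The mean of the 8 epithelial markers ran from -2.18 to 1.05 in sarcomatoid tumors and from -1.66 to 2.94 in adenocarcinomas, none of 8 being higher in the mean (median difference -2.18, and -3.02 without tumor 470). Its r with these family probes ran from -0.560 for Lox to -0.809 for Loxl2 A_52_P480351. Within the sarcomatoid group, the epithelial mean was -1.83 and -2.18 in the lung tumors 323 and 307. It was 0.50 to 1.05 in the mammary sarcomatoid tumors, and tumor 470 (-1.66) lay between these ranges. None of the 8 epithelial markers had a higher mean in the lung (median lung minus mammary -3.19), against 48.8% of all probes, and none passed the adjusted threshold. The fibroblast markers include Col1a1 and Col3a1, which are also in the collagen list. The part of these cell types in the family's differences was not tested. Without tumor 470, 1 of the 6 myeloid markers (Itgam) was called higher and 1 of the 8 epithelial markers (Krt18) lower, against 1.54% of all probes, and the study named both from these samples. Endothelial, smooth muscle, adipocyte, skeletal muscle and lung epithelial markers had median differences of -0.01, -0.47, -0.40, -1.08 and -0.01. Without tumor 470 these medians were 0.20, -0.23, -0.12, -0.52 and -0.02. Over all 10 arrays, the endothelial mean had r of 0.311 to 0.730 with the probes of Lox, Loxl1, Loxl2 and Loxl3. The highest was with Lox. For smooth muscle r was 0.121 to 0.559, again highest with Lox. For adipocyte, skeletal muscle and lung epithelial markers r ran from -0.164 to 0.275, -0.105 to 0.345 and -0.029 to 0.368.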

How the data were processed

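The authors deposited the scanner output of each two-colour array, which holds red and green spot intensity and a log10 ratio made by the scanner software. A table of normalized log2 values was likewise deposited, for which their methods name limma without the steps. Median intensities were corrected with limma 3.58.1 in R 4.3.3 (normexp, offset 50), control spots were removed, each array was normalized by loess, outlier spots (0.228% to 0.576%) were dropped, and replicate spots were averaged to give 41174 probes. The deposited table held 40196 probes and served as an alternative. Probes were named through a mouse RefSeq gene table (GRCm38), by accession for 22951, by symbol for 6659 and by synonym for 3109, and 8455 stayed unnamed. For other genes, the probe with the highest mean signal stood for the gene.

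Groups were compared in limma (lmFit and eBayes) on the 10 arrays, without covariates. Lung and mammary sarcomatoid tumors were compared in a fit of 3 groups. P-values were adjusted by Benjamini-Hochberg over all probes at 0.05. The fits were tested on simulated data. Family members, related lists and markers were chosen with earlier results of these data known. All family probes were named, with the 3 widest differences of each related list and the 5 most similar genes by Pearson's r among probes well above background on at least 8 arrays. Eln, Snai1, Epas1, Itgam, Krt18, Col4a1, Col4a2 and the lung epithelial markers were named in addition, after their values were seen. So were the fibroblast and myeloid markers whose probes differed. The genotypes and the injection place the sarcomatoid mammary and lung tumors in separate animals. Nothing says so for the 5 adenocarcinomas, whose spread may then be smaller than that between animals. Alternatives covered background correction, normalization, the deposited table, outlier spots, dim probes, scan batch, slide, tumor number and each array left out.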

Additional observations from a re-analysis of the deposited data

How the results depend on the processing

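Over 24 alternatives of the comparison of tumor types, the differences kept their direction for Lox (0.74 to 1.89), Loxl1 (1.37 to 2.27), Loxl2 A_51_P275949 (1.36 to 2.53), Loxl2 A_52_P480351 (0.93 to 1.77) and Loxl3 (0.38 to 1.41). Their adjusted p-values in limma stayed above 0.05 but for Loxl2 A_51_P275949 (0.0371 to 0.675), which passed in the deposited table without tumor 470 (2.53, 1 family probe called) and had an exact permutation p of 0.0317 for its difference of 1.62. Loxl4 A_51_P386533 turned to -0.24 with processed signals and -0.14 in the deposited table, and A_52_P342526 ranged from -0.0892 (without tumor 131) to 0.181 with 1 array left out. The count of all probes called, 0 with all arrays (4055 at an unadjusted p below 0.05), was 1 with median centring, 3 with the slide as a random block, 3 with tumor numbers averaged, and 0 to 635 with 1 array left out, the 635 being without tumor 470 and 0 without any other array. Without tumor 470 it was 618 in the deposited table and 261 with scan batch as a term, both chosen after the data were seen.

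Between lung and mammary sarcomatoid tumors, 2 probes were called in the main setting, 10 in the deposited table, 0 with scan batch as a term, 5 with sarcomatoid arrays only and 0 to 34 with 1 array left out, 34 being without lung tumor 307. Tumors 323 and 307 were paired by the shared tumor number in the labels. With this replicate block, 0 probes were called (5126 at an unadjusted p below 0.05), Lox turned to 0.0514 and Loxl4 A_51_P386533 to -0.0168. With scan batch as a term, Lox turned to 0.96 and Loxl2 A_51_P275949 to 0.42. Loxl1 moved to 2.47 (limma, unadjusted p = 0.0156), Loxl3 to 2.08 and Loxl2 A_52_P480351 to 1.24. For Loxl1 and Loxl3 these values came mostly from adenocarcinomas that differed between scan batches. Without background correction Loxl4 A_52_P342526 turned to -0.0634. With 1 array left out, lung minus mammary ranged from -2.31 to 1.56 for Lox (the latter without lung tumor 323, and 0.0514 without tumor 594), from -0.26 to 1.36 for Loxl1, from -1.56 to 0.27 for Loxl2 A_51_P275949, from -0.41 to 1.22 for Loxl2 A_52_P480351, from -0.76 to 1.43 for Loxl3, from -0.0168 to 0.189 for Loxl4 A_51_P386533 and from -0.0945 to 0.192 for Loxl4 A_52_P342526. The sign turned without lung tumor 323 for Lox, Loxl2 A_51_P275949 and Loxl4 A_52_P342526, without lung tumor 307 for Loxl1, Loxl2 A_52_P480351 and Loxl3, and without tumor 594 for Lox and Loxl4 A_51_P386533. The cause was not tested. No family probe was called between sites in 21 alternatives. Leaving out a lung tumor leaves 1 array, which is assumed to vary like the other groups. The signal of Loxl4 A_51_P386533 over background limits what can be said of it.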
